A study of Mus musculus with 6 samples.

Results

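Chemokines and their receptors were examined in the villi of *Trpm7*-deficient and control mice. Members were taken by gene symbol, as every *Ccl*, *Cxcl*, *Cx3cl*, *Xcl*, *Ccr*, *Cxcr*, *Cx3cr* or *Ackr* gene with a number that had a probe set of its own on the array, and the brightest probe set on average stood for a gene that had several. This gave 55 of 19938 genes, of which 34 were ligands and 21 were receptors, 4 of these atypical. The rule uses gene names only. TRPM7 is a cation channel fused to a kinase. The study asked how transcript levels in villi change when *Trpm7* is deleted in the intestinal epithelium. Both groups carried the floxed *Trpm7* allele in 2 copies. Control mice were *Trpm7* fl/fl and mutant mice were *Trpm7* fl/fl;*Villin1-Cre*, littermates 5 days old (P5). The *Villin1* promoter drives Cre in epithelial cells of the whole intestine, so immune and stromal cells of a mutant villus keep the floxed gene. Villi were dissociated mechanically, and 3 preparations per genotype were hybridised to 1 Affymetrix whole-transcript array each. The labels give a C57BL/6 background for all of them, whereas the methods give different strains for the floxed line and the Cre line. The labels do not say whether each preparation came from 1 animal, so the p-values measure the spread between these arrays.

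Chemokines are small secreted proteins that guide migrating leukocytes. They act on receptors that signal through G proteins, and atypical receptors take them up without such signalling. In the gut some ligands are made by the epithelium without any inflammation, such as CCL25, which draws CCR9-bearing lymphocytes to the small intestine. Others are induced by interferon or by bacterial products and draw T cells, monocytes or neutrophils.

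All values are log2 signals as deposited. Array medians lay between 6.24 and 6.30, and a signal under them is called dim here. The targeted gene *Trpm7* read 9.11, 8.96 and 9.03 in control replicates 1, 2 and 3 and 8.03, 7.79 and 7.88 in the mutant replicates, a difference of -1.13 (adjusted p = 1.9e-04 from limma). Whether that probe set lies within the deleted stretch is not stated, so the remaining signal does not measure intact transcript. *Vil1*, the epithelial marker whose promoter drives Cre, read from 12.23 to 12.28 in control and from 12.39 to 12.66 in mutant arrays. Enterocyte markers were at the top of the scale, with array means over 8 genes from 13.47 to 13.52, and 0 of these 8 rose and 1 fell. T cell markers were dim, with array means over 10 genes from 5.46 to 5.56, and B cell markers over 7 genes from 4.69 to 4.84. The female transcript *Xist* read 10.48, 9.82 and 9.66 in the control arrays, and the Y-linked *Eif2s3y* read 3.63, 7.71 and 7.84. Control replicates 2 and 3 thus held transcripts of both sexes, whereas the mutant arrays held *Xist* at 10.18, 4.76 and 5.26 and *Eif2s3y* at 3.56, 8.38 and 8.50. In both groups *Eif2s3y* was low in replicate 1 and high in replicates 2 and 3. *Xist*, however, was high in every control array but only in replicate 1 of the mutant arrays. The mix of sexes thus differed between the groups, and its part in the differences was not tested. With control replicates 2 and 3 averaged into 1, *Cxcr2* (adjusted p = 0.0738 from limma) and *Ccr1* (0.0818) were lost from the calls given below. This left 3 members higher and 5 lower (14.5% of the members, beside 13.9% of all genes in that fit). A difference in these bulk samples can stand for fewer cells of a type or for less RNA per cell, which cannot be told apart.

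Of the 55 chemokine genes, 5 were higher and 5 were lower in mutant villi, and 45 did not pass the test. That is 18.2% of the members, beside 19.5% of all genes called in either direction, 9.39% higher and 10.1% lower. The family as a whole was therefore called about as often as any genes. Its median difference was 0.01, and that of all genes was 0.0. The mutant and control values did not overlap for 22 members (40.0%), 13 with all mutant arrays above and 9 with all below, beside 37.5% of all genes, 18.6% above and 19.0% below. A difference of at least 2-fold that also passed the test was found for 4 members, beside 3.08% of all genes.

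**Figure D1:**
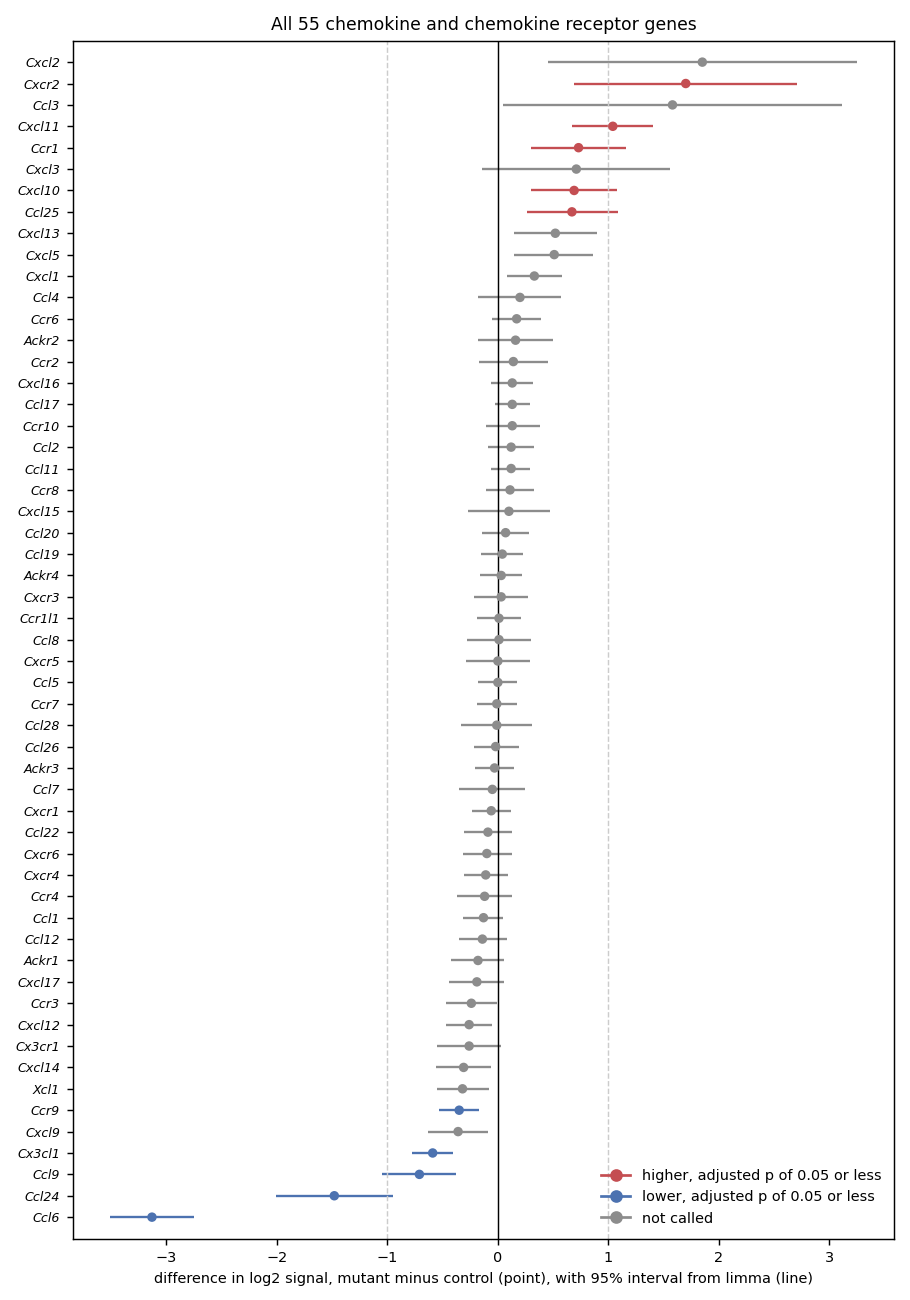
Difference in log2 signal, mutant minus control, for each of the 55 chemokine and receptor genes (points), with the 95% interval from limma (lines), red for genes higher and blue for genes lower at an adjusted p of 0.05 or less. Most genes lie near 0, *Ccl6* stands alone at -3.13, and the uncalled *Cxcl2* and *Ccl3* have the widest intervals, from 0.45 to 3.25 and from 0.05 to 3.11.

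Most of the family was dim in villi. Both group means of 38 members lay under the lowest array median, and of these 2 were higher, 1 was lower and 35 did not pass. Among the other 17 members, 3 were higher and 4 were lower, which is 41.2% of them beside 31.7% of all genes with at least 1 group mean at or above that median. Ligands held 3 of the rises and 4 of the falls (34 genes), and receptors held 2 rises and 1 fall (21 genes). Of the 45 uncalled members, 42 had a 95% interval of the difference that stayed within 2-fold in either direction. The others were *Ccl3*, *Cxcl2* and *Cxcl3*.

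**Figure D2:**
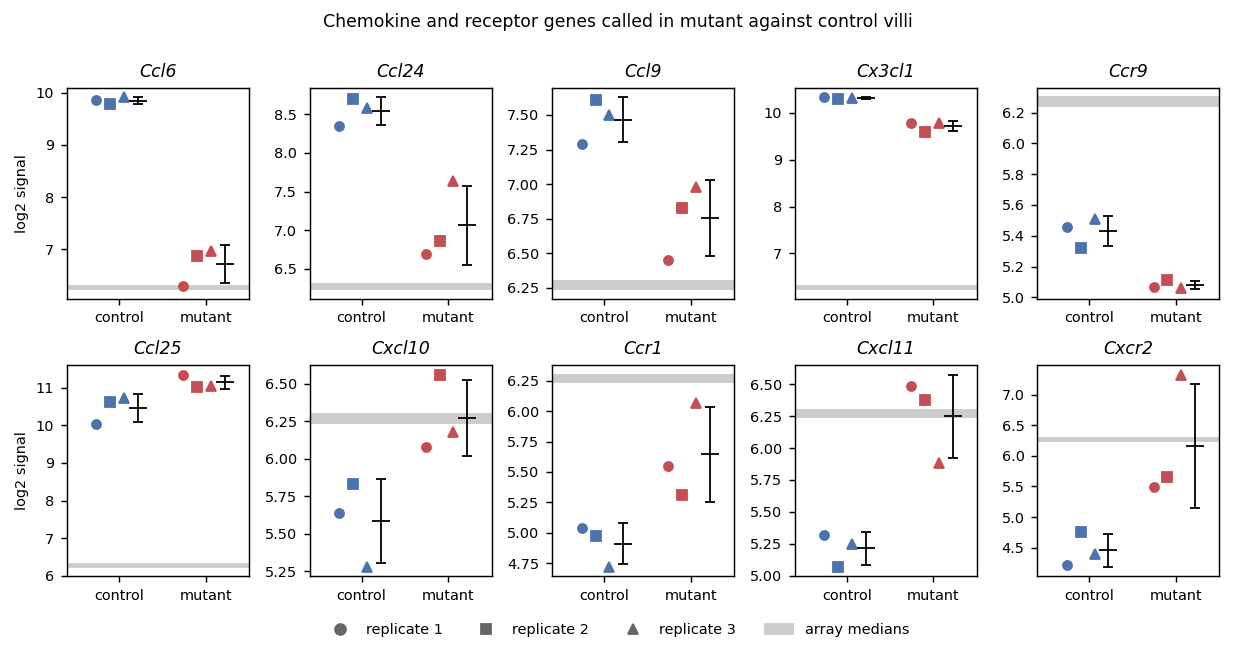
Log2 signal of the 10 called genes in each array (vertical axis, own scale in each panel), with control in blue and mutant in red, marker shapes for the replicate number, bars for the mean and SD of 3 arrays, and a grey band for the array medians. The 5 genes of the upper row are lower and the 5 of the lower row are higher in mutant villi, and the 3 mutant values of each lie on 1 side of the 3 control values.

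Among the ligands that act on monocytes, macrophages and T cells, 2 of 13 fell and none rose. *Ccl6*, a CC chemokine of rodents that binds CCR1, read 9.85, 9.78 and 9.91 in control arrays and 6.30, 6.87 and 6.97 in mutant arrays. Every mutant array was thus more than 2 log2 units under every control array, and mutant replicate 1 was at the array median. The difference was -3.13 ± 0.16 (SE, n = 3 each), an 8.77-fold fall (adjusted p = 4.2e-05 from limma). No other member changed as much in either direction, and the call held when any 1 array was left out.

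*Ccl9*, another CCR1 ligand and the neighbour of *Ccl6* in the RefSeq gene order, read 7.29, 7.61 and 7.50 in control arrays and 6.45, 6.83 and 6.98 in mutant arrays. It fell by 0.71 (SE 0.15, adjusted p = 0.0135 from limma), with no overlap. The call was lost without control replicate 2 (adjusted p = 0.0520 from limma). *Ccl3*, *Ccl4* and *Ccl5*, the other ligands of the same cluster, did not pass. *Ccl3* read 5.14, 4.83 and 4.93 in control and 6.03, 5.27 and 8.34 in mutant arrays. *Ccl4* read 5.33, 5.40 and 4.95 in control and 5.21, 5.34 and 5.72 in mutant arrays. *Ccl5* was level, at 6.09, 5.92 and 6.04 in control and 6.01, 6.00 and 6.03 in mutant arrays. Genes that lie side by side here thus spanned differences from -3.13 to 1.58.

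The other CC cluster, *Ccl2*, *Ccl7*, *Ccl11*, *Ccl12*, *Ccl8* and *Ccl1*, held no called gene, with differences from -0.14 to 0.12. It includes CCL2, the main attractant of monocytes, which read from 4.93 to 5.19 in control and from 5.14 to 5.25 in mutant arrays. *Ccl17*, a ligand of CCR4, read 6.11, 6.12 and 6.09 in control and 6.26, 6.17 and 6.27 in mutant arrays. These values did not overlap, but the difference of 0.13 did not pass (adjusted p = 0.277 from limma).

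Of the 3 eosinophil ligands, 1 fell. *Ccl24* (eotaxin-2), which acts through CCR3, read 8.35, 8.70 and 8.58 in control arrays and 6.69, 6.86 and 7.64 in mutant arrays. Mutant replicate 3 was the least low, and no mutant array reached a control array. The difference was -1.48 ± 0.23 (SE, n = 3 each; 2.79-fold lower, adjusted p = 0.00412 from limma), and it was called when any 1 array was left out. *Ccl11* (eotaxin-1), the ligand of the same receptor, read 7.40, 7.38 and 7.37 in control and 7.48, 7.60 and 7.42 in mutant arrays, a difference of 0.12 with a 95% interval from -0.06 to 0.29 (adjusted p = 0.36 from limma). The receptor gene *Ccr3* was dim, at 4.97, 5.19 and 5.10 in control and 5.00, 4.70 and 4.84 in mutant arrays (adjusted p = 0.158 from limma). Of the 4 other eosinophil markers, 0 rose and 0 fell, and their array means ran from 4.90 to 5.08 in control and from 4.98 to 5.06 in mutant arrays.

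Markers of macrophages and goblet cells are given beside these falls, since macrophages are a known source of CC chemokines and goblet cell markers had the largest median difference (-1.95) among the epithelial lists. Of 13 macrophage and monocyte markers, 0 rose and 2 fell (*Adgre1* by 0.54 and *Mertk* by 0.42). Their array means ran from 7.30 to 7.34 in control and from 7.31 to 7.60 in mutant arrays. The largest difference in this list, that of *Cd14*, was upward and did not pass (1.73, adjusted p = 0.0698 from limma). *Cd14* read 6.03, 6.12 and 6.33 in control and 7.25, 7.02 and 9.41 in mutant arrays. Of the 13, 3 had all mutant arrays above all control arrays and 2 had all below, beside 18.6% and 19.0% of all genes. Of 6 goblet cell markers, 0 rose and 5 fell, with array means from 10.84 to 11.06 in control and from 8.74 to 9.19 in mutant arrays. The mucin gene *Muc2* fell by 2.69 and *Clca1* by 3.46. The paper reports no change of *Muc2* by qPCR in RNA of the whole duodenum at the same age, a different preparation. The part of the macrophage and goblet cell markers in the falls of *Ccl6*, *Ccl9* and *Ccl24* was not tested.

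**Figure D3:**
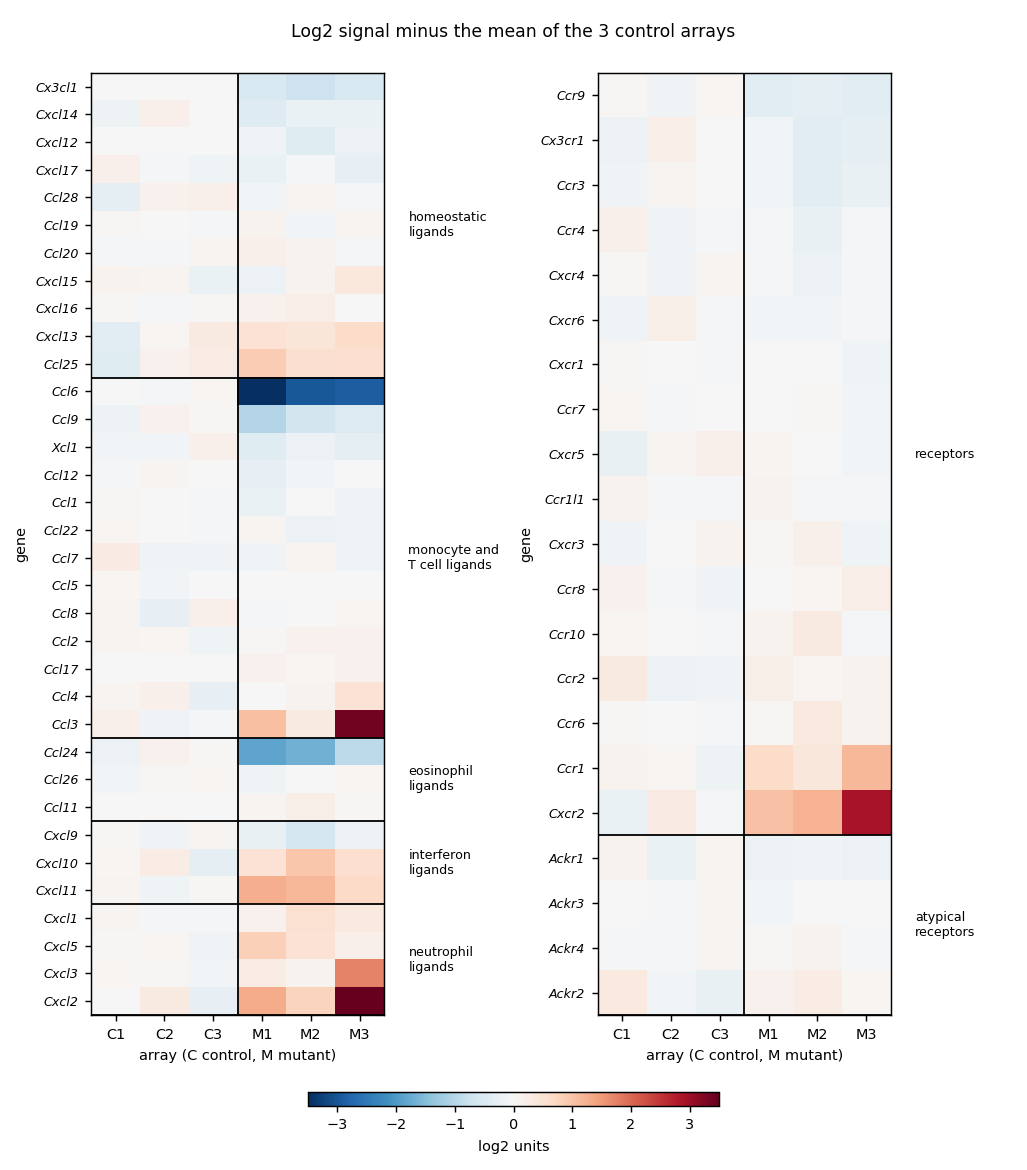
Log2 signal of each of the 55 genes in each array minus the mean of the 3 control arrays (colour, blue lower and red higher), with the genes grouped by role and the arrays in columns, controls (C) before mutants (M). The falls of *Ccl6*, *Ccl9* and *Ccl24* are seen in all 3 mutant arrays, whereas the strongest red cells, of *Cxcl2*, *Ccl3* and *Cxcr2*, are those of mutant replicate 3.

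Of the 11 homeostatic ligands of gut and lymphoid tissue, 1 rose and 1 fell. *Ccl25* was among the brightest members, at 10.05, 10.62 and 10.74 in control and 11.35, 11.03 and 11.05 in mutant arrays. Control replicate 1 was the lowest and mutant replicate 1 the highest. The difference was 0.67 ± 0.18 (SE, n = 3 each; adjusted p = 0.0388 from limma), and the call was lost when control replicate 2 or any 1 mutant replicate was left out (adjusted p from 0.0646 to 0.118 from limma) and with an offset of 32 on the linear scale (0.0562). A second, dimmer *Ccl25* probe set disagreed, at 7.03, 6.84 and 6.91 in control and 6.78, 6.84 and 6.81 in mutant arrays (difference -0.12, adjusted p = 0.372 from limma). *Ccr9*, the receptor of CCL25 on gut-homing T cells, was dim, at 5.46, 5.32 and 5.51 in control and 5.07, 5.11 and 5.06 in mutant arrays. It fell by 0.35 (SE 0.08, adjusted p = 0.0188 from limma). Its call was lost when control replicate 3 or any 1 mutant replicate was left out (adjusted p from 0.0515 to 0.0683 from limma). With the offset its difference was -0.19 and still called (adjusted p = 0.0227 from limma). Of 10 T cell markers, 0 rose and 0 fell, with a median difference of -0.03.

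*Cx3cl1* encodes fractalkine, a ligand tethered to the cell membrane of epithelium and endothelium. It read 10.33, 10.29 and 10.32 in control and 9.78, 9.59 and 9.79 in mutant arrays. The control arrays lay within 0.04 of each other by their rounded values, with an SD of 0.02. The fall of 0.59 (SE 0.08, adjusted p = 0.00225 from limma) was called when any 1 array was left out. Its receptor gene *Cx3cr1*, expressed by macrophages of the gut, read 6.73, 7.16 and 6.93 in control and 6.84, 6.57 and 6.63 in mutant arrays, which overlapped (difference -0.26, 95% interval -0.55 to 0.03, adjusted p = 0.214 from limma). *Ccl22* and *Ccl17*, the neighbours of *Cx3cl1* in the gene order, were not called. Of 8 endothelial markers, 0 rose and 2 fell, with array means from 8.09 to 8.20 in control and from 7.82 to 8.12 in mutant arrays. Their part in the fall of *Cx3cl1* was not tested.

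The other homeostatic ligands of the epithelium did not pass. *Cxcl14*, made by many epithelia, read 8.03, 8.37 and 8.20 in control and 7.74, 7.97 and 7.96 in mutant arrays. All mutant arrays were below all control arrays, and the difference of -0.31 missed the threshold (adjusted p = 0.0989 from limma). *Cxcl16*, the ligand of CXCR6, read 8.70, 8.61 and 8.70 in control and 8.81, 8.91 and 8.68 in mutant arrays (difference 0.13, 95% interval -0.06 to 0.32). *Ccl28*, which draws antibody-secreting cells through CCR10, read 6.80, 7.27 and 7.32 in control and 7.04, 7.23 and 7.09 in mutant arrays, and the groups overlapped (difference -0.01, 95% interval -0.33 to 0.31). *Ccl20*, made by the epithelium over lymphoid follicles, read 6.23, 6.24 and 6.38 in control and 6.45, 6.41 and 6.21 in mutant arrays (difference 0.07, 95% interval -0.14 to 0.28).

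The ligands of lymphoid tissue differed among themselves. *Ccl19*, a ligand of CCR7, read 6.21, 6.19 and 6.12 in control and 6.29, 6.08 and 6.26 in mutant arrays, which overlapped. The genes of CCL21, the other CCR7 ligand, share probe sets and so are not among the 55 members. The 4 shared probe sets held the same values, 8.65, 8.12 and 8.0 in control and 7.15, 6.64 and 6.94 in mutant arrays, a difference of -1.35 (adjusted p = 0.00254 from limma). Which of the *Ccl21* copies, or of the other genes listed for these probe sets, gave the signal cannot be told apart. *Ccr7* itself was dim, from 5.44 to 5.56 in control and from 5.39 to 5.55 in mutant arrays. *Cxcl13*, the attractant of B cells, was picked out after its values were seen. It read 5.32, 5.75 and 6.00 in control and 6.20, 6.11 and 6.33 in mutant arrays, without overlap, and did not pass (difference 0.52, adjusted p = 0.0647 from limma).

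The interferon-induced ligands of CXCR3 did not move as one. *Cxcl11* read 5.32, 5.07 and 5.25 in control and 6.49, 6.38 and 5.88 in mutant arrays. The difference was 1.04 ± 0.16 (SE, n = 3 each; adjusted p = 0.00374 from limma), and it was called when any 1 array was left out. With an offset of 32 added on the linear scale, which damps differences of dim genes, it was 0.65 and still called (adjusted p = 0.0107 from limma). These are transcript signals, and whether functional CXCL11 protein is made in these mice was not tested. *Cxcl10* read 5.64, 5.83 and 5.28 in control and 6.08, 6.56 and 6.18 in mutant arrays. It was higher by 0.69 (SE 0.17, adjusted p = 0.027 from limma). The call was lost when control replicate 1 or 3 or mutant replicate 2 or 3 was left out (adjusted p from 0.0514 to 0.0839 from limma). With the offset the difference was 0.45 and still called (adjusted p = 0.0426 from limma). *Cxcl9*, the neighbour of *Cxcl10*, read 5.90, 5.74 and 5.95 in control and 5.60, 5.26 and 5.65 in mutant arrays. Its difference had the opposite sign and did not pass (-0.36, adjusted p = 0.078 from limma). The receptor gene *Cxcr3* was dim and overlapped, at 5.21, 5.33 and 5.46 in control and 5.37, 5.52 and 5.19 in mutant arrays (difference 0.03, 95% interval -0.22 to 0.27). Interferon gamma itself (*Ifng*) read from 4.62 to 5.01 in control and from 4.47 to 4.81 in mutant arrays. Of the interferon factors, *Irf7* rose by 0.51 (adjusted p = 0.0326 from limma, and from 0.0631 to 0.114 when any 1 array but mutant replicate 3 was left out) and *Irf1* fell by 0.43 (adjusted p = 0.00659 from limma).

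Promoters are shown for *Cxcl10* and for 3 of the 4 neutrophil ligands, because the factors that induce them are known to bind there and because the mutant arrays lay above the control arrays for all of them. *Cxcl5*, the remaining neutrophil ligand, also lay above, but it is not shown and was not among the members with a match. The promoter of *Ccl6*, the most changed member, was also searched and held no match. Every promoter shown holds a match, so they do not represent the family. Each promoter shown is the 250 bases before the RefSeq start in GRCm38.p6. It is read 5′ to 3′ on the strand of the gene, which is the minus strand for *Cxcl10* and the plus strand for the others shown. Capitals mark matches on either strand to the core of the interferon-stimulated response element (GAAA, any 2 bases, GAAA) or to the NF-kappaB consensus, and overlapping matches run together.
*Cxcl10*, chr5:92348890-92349139: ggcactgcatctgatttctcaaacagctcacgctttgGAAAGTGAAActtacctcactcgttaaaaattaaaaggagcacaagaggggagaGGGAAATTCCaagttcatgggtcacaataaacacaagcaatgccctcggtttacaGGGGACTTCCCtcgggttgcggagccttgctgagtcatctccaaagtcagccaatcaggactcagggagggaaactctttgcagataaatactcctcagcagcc
*Cxcl1*, chr5:90890995-90891244: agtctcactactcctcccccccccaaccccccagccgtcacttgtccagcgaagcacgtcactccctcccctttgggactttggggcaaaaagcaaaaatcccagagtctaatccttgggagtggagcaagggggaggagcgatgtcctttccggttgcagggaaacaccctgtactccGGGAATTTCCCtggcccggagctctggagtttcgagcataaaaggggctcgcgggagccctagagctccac
*Cxcl2*, chr5:90903649-90903898: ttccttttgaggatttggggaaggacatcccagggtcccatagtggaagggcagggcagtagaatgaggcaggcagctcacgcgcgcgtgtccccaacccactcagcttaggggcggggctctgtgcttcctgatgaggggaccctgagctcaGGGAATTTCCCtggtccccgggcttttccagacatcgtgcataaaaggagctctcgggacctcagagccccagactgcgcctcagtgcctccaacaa
*Cxcl3*, chr5:90785851-90786100: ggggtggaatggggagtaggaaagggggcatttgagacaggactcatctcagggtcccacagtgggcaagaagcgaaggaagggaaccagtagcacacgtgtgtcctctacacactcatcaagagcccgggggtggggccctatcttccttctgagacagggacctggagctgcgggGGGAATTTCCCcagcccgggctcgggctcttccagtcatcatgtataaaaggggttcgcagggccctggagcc
The first run of capitals in *Cxcl10* is the interferon element, which starts 213 bases before the transcript start. The other runs are NF-kappaB matches, which start 159 and 104 bases before it in *Cxcl10*, 71 in *Cxcl1*, 97 in *Cxcl2* and 73 in *Cxcl3*. The matched letters of *Cxcl1*, *Cxcl2* and *Cxcl3* were the same. Promoters were listed for 41 of the 55 members. The NF-kappaB consensus was found in 11 of these 41 (26.8%) and in 2225 of 27025 genes with a promoter of the same length listed (8.23%). The members with a match were *Ccl1*, *Ccl9*, *Ccl20*, *Cxcl1*, *Cxcl2*, *Cxcl3*, *Cxcl10*, *Ackr2*, *Ccr1*, *Ccr3* and *Ccr6*, and thus included the lowered *Ccl9* as well as the raised *Ccr1* and *Cxcl10*. The interferon element core was found in 3 of 41 (7.32%), in *Ccl19*, *Cxcl10* and *Cxcl14*, and in 936 of the 27025 genes (3.46%). These matches describe the sequence only.

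The 4 members grouped here as neutrophil ligands, which bind CXCR2, each lay higher in every mutant array than in any control array, and none of the 4 passed the test. Of all genes, 18.6% had all mutant arrays above all control arrays. Both group means of *Cxcl3* and *Cxcl5* were dim. *Cxcl1* read 6.43, 6.30 and 6.26 in control and 6.47, 6.85 and 6.67 in mutant arrays (difference 0.33, adjusted p = 0.0757 from limma). *Cxcl2* read 4.96, 5.30 and 4.69 in control and 6.27, 5.77 and 8.47 in mutant arrays (difference 1.85, adjusted p = 0.0779 from limma). Mutant replicate 3 was thus 2 log2 units or more above the other mutant arrays for *Cxcl2*. *Cxcl3* read 4.61, 4.58 and 4.44 in control and 4.81, 4.68 and 6.27 in mutant arrays (difference 0.71, adjusted p = 0.253 from limma). *Cxcl5* read 3.53, 3.55 and 3.36 in control and 4.31, 3.98 and 3.67 in mutant arrays (difference 0.51, adjusted p = 0.0592 from limma), and here mutant replicate 3 was the lowest mutant array. Without mutant replicate 3, *Cxcl2* (difference 1.04, adjusted p = 0.0194 from limma) and *Cxcl5* (difference 0.66, adjusted p = 0.0139 from limma) passed, whereas *Cxcl3* dropped to a difference of 0.20 (adjusted p = 0.223 from limma). *Ppbp*, another CXCR2 ligand gene outside the rule's symbols, overlapped, at 4.18, 3.92 and 4.14 in control and 3.95, 4.73 and 4.11 in mutant arrays (difference 0.18, adjusted p = 0.583 from limma). *Cxcl15*, which lies between *Cxcl3* and *Cxcl1* in the gene cluster, was grouped here with the homeostatic ligands. Its values overlapped between groups (difference 0.10), so the pattern of the 4 did not extend to every gene of the cluster.

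The receptor gene *Cxcr2* read 4.22, 4.75 and 4.40 in control and 5.49, 5.66 and 7.33 in mutant arrays. It was higher by 1.70 ± 0.44 (SE, n = 3 each; adjusted p = 0.033 from limma). All control values were dim, so the fold is not well measured, and with the offset of 32 the difference was 0.98 and did not pass (adjusted p = 0.106 from limma), nor did it with trend and robust estimation (0.102). Without mutant replicate 3 the difference was 1.12 and still passed (adjusted p = 0.00488 from limma), whereas with any 1 control replicate left out it did not (adjusted p from 0.0626 to 0.0966 from limma). *Cxcr1*, its neighbour in the gene order, overlapped between groups (difference -0.06). *Ccr1*, the receptor of CCL3, CCL6 and CCL9 on neutrophils and monocytes, read 5.04, 4.97 and 4.72 in control and 5.55, 5.31 and 6.07 in mutant arrays. It was higher by 0.73 (SE 0.19, adjusted p = 0.0315 from limma), and the call was lost when any 1 control replicate or mutant replicate 1 was left out (adjusted p from 0.0553 to 0.105 from limma) and with the offset of 32 (difference 0.41, adjusted p = 0.0648 from limma). Thus *Ccr1* was higher while its ligands *Ccl6* and *Ccl9* were lower, and *Ccl3* was higher in each mutant array without passing (difference 1.58, adjusted p = 0.158 from limma, and 0.68 and 0.0861 without mutant replicate 3).

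**Figure D4:**
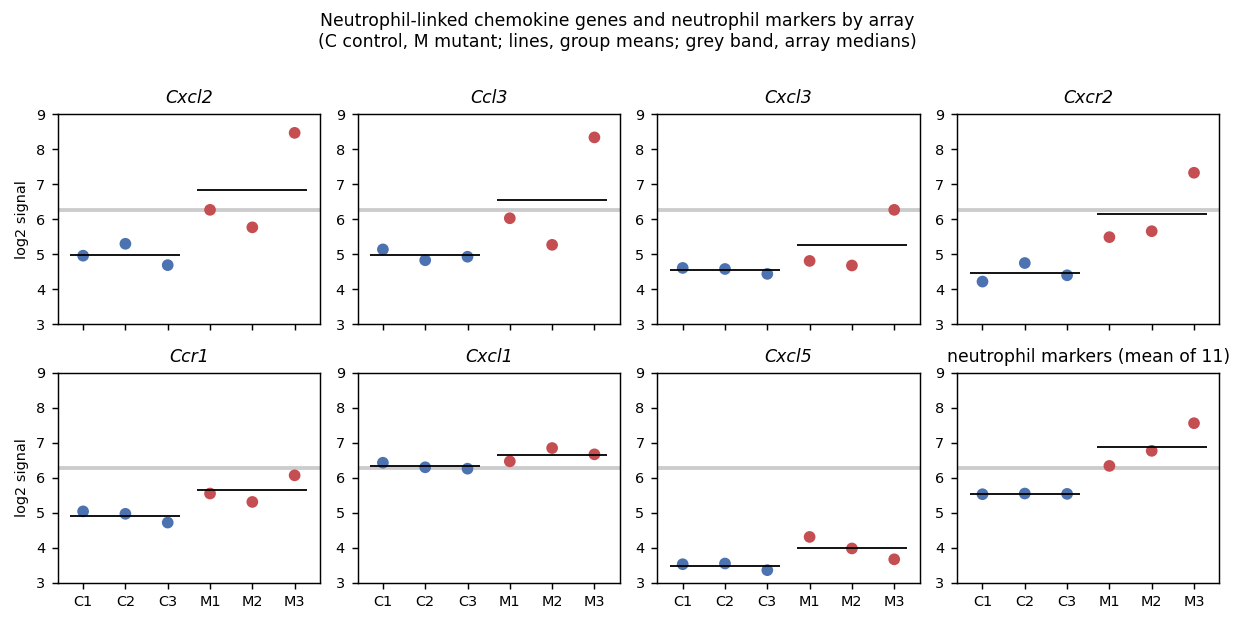
Log2 signal in each array (control C, blue, and mutant M, red) of 7 chemokine genes linked to neutrophils and of the mean over 11 neutrophil markers other than *Cxcr2*, with lines for the group means and a grey band for the array medians. Mutant replicate 3 is highest for *Cxcl2*, *Ccl3*, *Cxcl3*, *Cxcr2*, *Ccr1* and the marker mean, but not for *Cxcl1* or *Cxcl5*.

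Neutrophil markers are given beside these genes. Of 11 markers other than *Cxcr2*, 5 rose and 0 fell, and their mean was 5.53, 5.55 and 5.54 in control and 6.34, 6.77 and 7.56 in mutant arrays. *S100a8* was higher by 3.31, *S100a9* by 3.46, *Retnlg* by 3.30, the collagenase gene *Mmp8* by 2.11 and the receptor gene *Csf3r* by 0.69, the last of which was lost when mutant replicate 2 or any 1 control replicate was left out (adjusted p from 0.0635 to 0.124 from limma). The other 6 did not pass, with differences of 1.37 for *Ngp* (adjusted p = 0.0544 from limma), 0.52 for *Ltf*, 0.24 for *Elane*, 0.10 for *Camp*, 0.07 for *Mpo* and -0.29 for *Mmp9*. The markers shared by all leukocytes (5 genes) had 0 rises and 0 falls, with array means of 6.99, 7.21 and 7.27 in control and 6.99, 7.02 and 7.70 in mutant arrays. Mutant replicate 3 was the highest array in both lists. Among the 55 members, the range of the mutant arrays was over 1 log2 unit for 4 genes, *Ccl3*, *Cxcl2*, *Cxcr2* and *Cxcl3*, and the range of the control arrays for none (highest 0.69). The median range was 0.23 in mutant and 0.25 in control arrays. The part of the neutrophil markers in the levels of *Cxcr2*, *Ccr1* and their ligands was not tested.

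The remaining receptors showed little. Of the 17 classical receptors, 14 did not pass, with differences from -0.26 (*Cx3cr1*) to 0.17 (*Ccr6*). *Cxcr4*, the receptor of CXCL12, read 6.43, 6.27 and 6.48 in control and 6.32, 6.19 and 6.34 in mutant arrays (difference -0.11, 95% interval -0.31 to 0.09). Its ligand gene *Cxcl12* differed by -0.26 (adjusted p = 0.0942 from limma). The cluster of *Ccr9*, *Cxcr6*, *Ccr1*, *Ccr1l1*, *Ccr3* and *Ccr2* held 1 gene that rose and 1 that fell, from -0.35 to 0.73. The 4 atypical receptors, which scavenge chemokines, differed by -0.18 (*Ackr1*), 0.16 (*Ackr2*), -0.03 (*Ackr3*) and 0.03 (*Ackr4*), and none was called.

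Across the genome, 33 of the 54 members placed in the RefSeq gene order lay in 9 groups of neighbours, counted as members with at most 2 other genes between them. *Cxcl11* was the member without a place among the protein-coding genes of that order. In 6 of the 9 groups at least 1 gene was called, and in no group were all of them called. With 19.5% of all genes called, groups of several genes can hold a called gene anyway. No share for such groups was computed, so the count is not read as a result about neighbours. The 5 CXC genes from *Cxcl5* to *Cxcl2* differed by 0.10 to 1.85, all above 0 and none called.

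Other genes of the pathway were described from lists chosen by function, whose shares of called genes are read beside 19.5% of all genes and 31.7% of genes that were not dim. Of 9 family genes with other names, 3 rose and 0 fell (33.3%), with a median difference of 0.37. *Dpp4*, the peptidase that trims several chemokines, was the largest of them, at 10.88, 10.85 and 10.84 in control and 11.86, 11.67 and 11.90 in mutant arrays (difference 0.95, adjusted p = 3.07e-04 from limma). *Cmklr1*, the chemerin receptor, and *Ccrl2*, a chemerin-binding atypical receptor, each rose by 0.53 (adjusted p = 0.00812 and 0.0476 from limma). The call of *Ccrl2* was lost when any 1 array other than mutant replicate 1 was left out (adjusted p from 0.0545 to 0.141 from limma), an alternative chosen for these lists after seeing the data. Of 30 signalling genes downstream of the receptors, 9 rose and 1 fell (33.3%), with a median of 0.12. Of these 30, 21 were not dim and 9 were dim, so neither background share matches this list. The genes that rose included the inhibitory G protein subunits *Gnai1* (1.40), *Gnai2* (0.37) and *Gnai3* (0.47), the arrestin *Arrb1* (0.76), the guanine nucleotide exchange partner *Elmo1* (1.00) and the brake *Rgs1* (0.97), whereas *Rgs2* fell by 0.50. *Gnai1* was highest in mutant replicate 3, at 7.02, 7.09 and 8.67 in the mutant arrays, and its difference was 0.86 without that array (adjusted p = 0.00553 from limma). Its call was lost when mutant replicate 2 or any 1 control replicate was left out (adjusted p from 0.0581 to 0.128 from limma), and so was that of *Rgs1* (from 0.0542 to 0.0853). These genes are also used by other receptors and by epithelial cells.

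Of 14 genes of adhesion and transmigration, 1 rose and 0 fell (7.14%). The riser was the integrin gene *Itgam* of neutrophils and macrophages, at 6.03, 6.49 and 6.42 in control and 6.76, 6.98 and 7.68 in mutant arrays (difference 0.83, adjusted p = 0.0453 from limma). The call was lost when any 1 array but mutant replicate 1 was left out (adjusted p from 0.0572 to 0.127 from limma). The gut addressin gene *Madcam1* did not pass (difference -0.03). Of 15 inducers and nuclear factors upstream of chemokine genes, 6 rose and 1 fell (46.7%), with a median of 0.19. *Il1b* read 5.50, 5.39 and 5.31 in control and 7.06, 6.80 and 9.69 in mutant arrays (difference 2.45, adjusted p = 0.0397 from limma), again highest in mutant replicate 3. Its difference was 1.53 without that array (adjusted p = 3.51e-04 from limma), and its call was lost when any 1 control replicate was left out (adjusted p from 0.0905 to 0.108 from limma). *Nfkbia*, the inhibitor and target of NF-kappaB, was even across the mutant arrays, at 8.77, 8.89 and 8.91 in control and 10.28, 10.05 and 9.99 in mutant arrays (difference 1.25, adjusted p = 1.86e-04 from limma). *Tnf* (difference 0.38), *Il6* (-0.08) and *Il17a* (-0.09) did not pass, and both group means of each were dim. *Il6* was very dim, from 2.93 to 3.21 in control and from 2.65 to 3.25 in mutant arrays. The paper reports high IL-6 in the serum of mutant mice of the same age, which is protein in blood and not transcript in villi.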

How the data were processed

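Villi of 3 control and 3 mutant preparations were each measured on 1 Affymetrix array. Each probe set has 1 log2 signal per array, as the authors deposited it, rounded to 0.01. The sources used here do not give the authors' background correction or normalization. The number of arrays (6) limits the precision. Genes were named from the platform annotation, in which 21789 of 30177 probe sets had 1 symbol, 1621 had several and 6767 were not listed. The rule matched 60 probe sets of 55 genes (*Ccl19* had 5 and *Ccl25* had 2). *Ccl21a-d*, *Ccl27a* and *Ccl27b* had no probe set of their own here and were not counted. Probe sets that *Ccl27a* and *Ccl27b* share with other genes gave differences of -0.38 (adjusted p = 0.0666 from limma) and -0.35 (0.0253). Promoters and gene order came from RefSeq (GRCm38.p6).

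Groups were compared on the log2 scale with limma 3.58.1 in R 4.3.3 (lmFit and eBayes, mutant minus control), and the p-values of all 30177 probe sets were adjusted together (Benjamini-Hochberg). Genes were called at an adjusted p of 0.05 or less. Background shares are over 19938 genes. An exact permutation test of 3 against 3 arrays cannot give p under 0.1 and was not used. The script was tested on simulated data. Named genes were all called members, the 10 brightest uncalled members and the uncalled ligands or receptors of called members. Members and lists were chosen with earlier results of these data known. Alternatives were a replicate block, quantile normalization, median centring, array weights, eBayes with trend and robust estimation, leaving out dim probe sets, an offset of 32, the dimmest probe set per gene, averaging control replicates 2 and 3, and leaving out each array. Same-numbered deviations from the group means correlated at 0.174, 0.039 and 0.119, all low but positive. The labels give replicate numbers only, so whether the numbers pair the arrays cannot be told. The main fit used no pairing, and the last section gives the fit with a replicate block. Tables were handled with pandas 2.3.3 and figures drawn with matplotlib 3.10.9 in Python 3.11.15.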

Additional observations from a re-analysis of the deposited data

How the results depend on the processing

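The falls of *Ccl6*, *Ccl24* and *Cx3cl1* and the rise of *Cxcl11* passed under every alternative run for them, with adjusted p (limma) from 1.5e-05 to 5.91e-04, 3.14e-04 to 0.0215, 8.4e-04 to 0.012 and 6.22e-04 to 0.0202. The number of members higher, 5, was 3 with control replicates 2 and 3 averaged (14.5% of members called either way, beside 13.9% of all genes), 2 with dim probe sets left out (46.2% of 13 members, beside 38.6%), 2 with an offset of 32 (12.7%, beside 21.7%), and 2 to 5 when each array was left out (10.9% to 16.4%, beside 12.9% to 16.9%). It was 7 with array weights (23.6%, beside 21.8%), 6 with quantile normalization, 5 with median centring, and 4 with trend and robust estimation or the dimmest probe set per gene. The number lower, 5, was 4 with dim probe sets left out, 4 to 5 when each array was left out, 6 with array weights, 7 with median centring and 5 in the others apart from the block. The median difference of the members, 0.01, was -0.11 with dim probe sets left out, -0.04 with median centring (all genes -0.04) and -0.01 to 0.03 when each array was left out. *Ccl25* was -0.12 with its dimmest probe set. With a replicate block, 5 members were higher and 7 lower (21.8% of the members, beside 18.9% of all genes). In that fit *Ccl25* (adjusted p = 0.0699 from limma) and *Ccr1* (0.0536) were lost, and *Cxcl14* (0.0432), *Cxcl9* (0.0309), *Cxcl5* (0.028) and *Cxcl13* (0.0394) were called. By their deviations from the group means, 5 of 6 arrays correlated best with the array of their own number in the other group. The cause of these shifts was not tested. Both group means of 38 members were under the lowest array median, which limits how far their differences can be read.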
